A study of Mus musculus with 4 samples.

Results

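Atf4 and 9 genes of its amino acid stress pathway were compared between alveolar macrophages of wild-type mice (WT) and of mice lacking the transcription repressor Bach2 (Bach2KO). The genes were Atf4, Atf3, Ddit3, Trib3, Ppp1r15a, Asns, Psat1, Slc7a5, Chac1 and Sesn2. They are 10 of the 19751 genes that could be named on the array, and a probe was taken as a member's where its RefSeq accession belongs to that gene. All 10 were among the 15123 genes measured, with 13 probes in all. Atf4, Psat1 and Slc7a5 had 2 probes each and the other 7 genes had 1.

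Atf4 is a basic leucine zipper transcription factor whose protein is made when the initiation factor eIF2 is phosphorylated. Kinases that sense uncharged tRNA, misfolded protein in the endoplasmic reticulum, double-stranded RNA or heme deficiency phosphorylate eIF2, which lowers protein synthesis in general and raises translation of the Atf4 messenger. Atf4 then drives genes for amino acid synthesis and import, together with inhibitors that end the response. This control acts largely on translation, which an array of RNA abundance does not see.

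The study, on Bach2 in surfactant homeostasis and macrophage function, used RNA from sorted lung alveolar macrophages, with 8 WT mice and 4 Bach2KO mice (3 in the series design text) pooled by genotype and no treatment named. The labels give no age, sex or strain of the mice and no sorting gate. There was 1 RNA sample per genotype, divided in 2 before amplification and Cy3 labelling, which gave 2 WT and 2 Bach2KO arrays on 1 slide. The arrays of a genotype are therefore technical repeats, no test of the genotype is possible, and each SD below is over 2 arrays of 1 RNA sample. Levels are log2 signal relative to the 75th percentile of the array, and differences are Bach2KO minus WT. A call of higher or lower needed a difference of at least 2-fold (1 on the log2 scale) in the same direction for every one of the 4 Bach2KO-WT array pairs, which is a rule of size. By that rule 8.37% of the measured genes were higher and 5.90% were lower in Bach2KO.

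Each array had between 27125 and 27918 of 39429 probes well above background, and 0 of 43020 spots were saturated. Bach2 itself was near the detection limit, with its probe well above background on 1 array of each genotype (log2 levels -6.32 and -6.28 in WT, -5.16 and -8.13 in Bach2KO), so it gave no check of the labels. Of 23 measured alveolar macrophage markers 8 were lower and 3 higher in Bach2KO, beside 5.90% and 8.37% of all measured genes. All 23 were well above background on at least 1 array of each genotype. Their summed level, on the linear scale with the 75th percentile as 1, was 1949 and 1808 in WT against 1747 and 1691 in Bach2KO. The brightest markers weigh most in such a sum, and the differences of the 23 ran from -6.09 to 1.94, with a median of -0.15. A scaling to 9 spike-in (E1A) probes in place of the 75th percentile lowered every difference by 0.72 and moved the median over all genes from 0.06 to -0.66. With it 4.15% of genes were higher and 21.0% lower, and the calls and counts that it changes are given with each list. Of the 23 alveolar macrophage markers 1 was then higher and 10 were lower.

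Short DNA elements upstream of these genes are part of what defines the pathway, so the start regions of the members were searched. Windows from 250 bases before to 50 bases after the start site (RefSeq, build GRCm38.p6) were at hand for 9 of the 10 members, with Slc7a5 not matched. The composite element bound by Atf4 dimers with C/EBP proteins was searched as TGATGNAA on both strands, where N is any base. It lay in the windows of 4 of the 9 members, Atf3, Trib3, Asns and Chac1, and in 3.97% of all 32851 windows. These 4 are shown with the element in capitals, along with the window of Ppp1r15a, in which the capitals mark the cAMP response element TGACGTCA, present in 1.79% of all windows. All 5 read 5′ to 3′ on the strand of the gene.
Atf3: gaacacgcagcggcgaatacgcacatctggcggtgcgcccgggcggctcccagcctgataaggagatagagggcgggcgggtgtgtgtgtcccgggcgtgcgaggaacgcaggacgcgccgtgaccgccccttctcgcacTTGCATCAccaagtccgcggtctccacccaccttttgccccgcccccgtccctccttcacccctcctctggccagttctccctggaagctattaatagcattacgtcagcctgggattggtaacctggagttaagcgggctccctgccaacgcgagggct
Trib3: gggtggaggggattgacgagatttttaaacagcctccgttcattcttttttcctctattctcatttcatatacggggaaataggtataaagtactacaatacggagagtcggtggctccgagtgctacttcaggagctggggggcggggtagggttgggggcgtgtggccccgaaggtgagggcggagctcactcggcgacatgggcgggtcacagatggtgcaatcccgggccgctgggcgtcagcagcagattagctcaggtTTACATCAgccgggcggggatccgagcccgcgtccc
Asns: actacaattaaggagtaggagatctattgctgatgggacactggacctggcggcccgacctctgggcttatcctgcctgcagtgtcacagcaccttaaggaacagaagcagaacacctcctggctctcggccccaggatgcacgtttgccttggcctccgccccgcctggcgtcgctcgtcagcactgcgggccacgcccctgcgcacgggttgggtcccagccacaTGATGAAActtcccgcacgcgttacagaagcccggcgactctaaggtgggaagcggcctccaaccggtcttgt
Chac1: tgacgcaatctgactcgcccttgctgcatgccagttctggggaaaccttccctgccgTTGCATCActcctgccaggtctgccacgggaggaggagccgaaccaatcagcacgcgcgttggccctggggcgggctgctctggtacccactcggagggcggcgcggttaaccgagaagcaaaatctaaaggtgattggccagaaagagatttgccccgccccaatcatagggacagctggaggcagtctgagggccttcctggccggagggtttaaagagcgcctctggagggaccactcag
Ppp1r15a: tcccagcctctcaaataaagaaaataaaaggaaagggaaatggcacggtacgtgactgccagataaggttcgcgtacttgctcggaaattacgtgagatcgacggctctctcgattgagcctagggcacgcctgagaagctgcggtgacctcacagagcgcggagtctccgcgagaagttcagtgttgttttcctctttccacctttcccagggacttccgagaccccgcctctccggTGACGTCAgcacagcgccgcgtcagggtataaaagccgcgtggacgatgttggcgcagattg

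The windows are chr1:191183284-191183583 (Atf3, minus strand), chr2:152344011-152344310 (Trib3, minus), chr6:7693160-7693459 (Asns, minus), chr2:119350992-119351291 (Chac1, plus) and chr7:45526219-45526518 (Ppp1r15a, minus). Counted from the start site, with -1 the base before it, the first base of the composite element was at -110 in Atf3, 15 in Trib3, -23 in Asns and -193 in Chac1. It was read on the strand of the gene in Asns and on the opposite strand, as TTNCATCA, in the other 3. The Ppp1r15a element began at -12. The AP-1 site TGANTCA was in 7.81% of all windows and in that of Ddit3 alone among the members. Directly preceded by TGC it is a Maf recognition element, the kind of site that Bach2 binds, which was found in 0 of the 9 members' windows and in 0.423% of all windows, on either strand. All such matches are descriptions of letters and not of binding.

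Of the 10 members 6 were called higher in Bach2KO, 1 was called lower by one of its probes, and 3 met neither condition. The 6 were Trib3, Asns, Ppp1r15a, Chac1, Atf3 and Ddit3, which differed by 1.51 to 2.87. Over all measured genes 8.37% were higher and 5.90% lower. With spike-in scaling 4 members were higher and 1 was lower, beside 4.15% and 21.0% of all measured genes. The median over the members was 1.61, beside 0.06 over all measured genes, and with spike-in scaling 0.89 beside -0.66. Among all measured genes ordered from the highest difference, Trib3 stood at place 381, Asns at 467, Ppp1r15a at 566, Chac1 at 582, Atf3 at 772 and Ddit3 at 922 of 15123. All 13 probes were well above background on all 4 arrays.

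**Figure D1:**
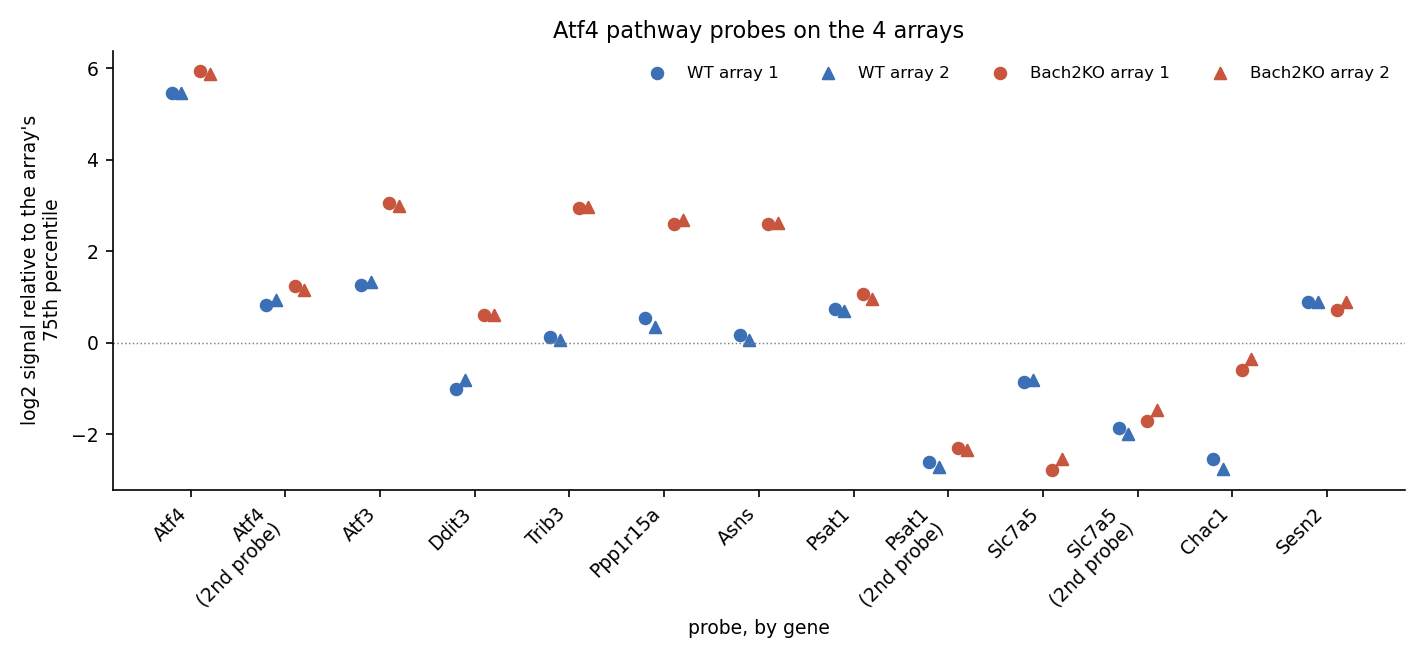
Log2 signal relative to the 75th percentile of each array (vertical axis) for the 13 probes of the 10 genes (horizontal axis), with a point for each of the 2 WT and 2 Bach2KO arrays. The points of Trib3, Asns, Ppp1r15a, Chac1, Atf3 and Ddit3 lie higher on both Bach2KO arrays, while the 2 probes of Slc7a5 go opposite ways.

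Among the transcription factors, the messenger of Atf4 itself differed little. Its brighter probe, for transcript NM_009716, read 5.45 and 5.47 in WT against 5.95 and 5.89 in Bach2KO. The difference of 0.45 (WT 5.46 ± 0.01, Bach2KO 5.92 ± 0.05) was far below 2-fold. The other probe of Atf4 gave 0.31. With spike-in scaling both turned negative, at -0.26 and -0.41, so the direction of the Atf4 messenger depends on the scaling.

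Atf3 and Ddit3 encode leucine zipper factors that are induced downstream of Atf4, and both were called higher. Atf3, which mainly represses its targets and is also induced by many other stresses, read 1.28 and 1.34 in WT against 3.05 and 2.99 in Bach2KO, a difference of 1.71 (3.28-fold). Ddit3, which encodes the factor CHOP that promotes cell death under lasting stress, read -1.0 and -0.82 in WT against 0.60 and 0.61 in Bach2KO, a difference of 1.51 (2.85-fold). Neither Atf3 nor Ddit3 met the 2-fold rule with spike-in scaling, where they differed by 0.99 and 0.79.

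The inhibitors that act back on the pathway differed more. Trib3, a pseudokinase induced by Atf4 and Ddit3 that restrains both Atf4 activity and Akt, had the largest difference of the 10 genes. Its levels were 0.12 and 0.06 in WT against 2.95 and 2.97 in Bach2KO, or 0.09 ± 0.04 and 2.96 ± 0.01 (SD, n = 2 arrays), a difference of 2.87 and a 7.30-fold higher signal. Ppp1r15a encodes GADD34, which brings protein phosphatase 1 to eIF2 and so ends the translational block. Its levels were 0.54 and 0.34 in WT and 2.61 and 2.68 in Bach2KO, a difference of 2.21 (4.61-fold). Both genes stayed above 2-fold in all pairs with spike-in scaling, at 2.15 and 1.49.

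The amino acid genes did not move as one group. Asns, which encodes the enzyme that makes asparagine from aspartate and glutamine and is a standard readout of amino acid shortage, read 0.17 and 0.06 in WT against 2.60 and 2.63 in Bach2KO. Its means were 0.11 ± 0.08 and 2.62 ± 0.02, a difference of 2.51 and a 5.68-fold higher signal, or 1.79 with spike-in scaling. Psat1, the aminotransferase of serine synthesis, showed no such difference. Its brighter probe read 0.73 and 0.69 in WT and 1.08 and 0.97 in Bach2KO, a difference of 0.31, and its other probe gave 0.34. Both values were below 2-fold, and both probes were negative with spike-in scaling (-0.41 and -0.38).

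Slc7a5, the light chain of the LAT1 transporter that imports large neutral amino acids such as leucine, had probes that disagreed, so its direction is not settled. Probe A_55_P1973941 read -0.85 and -0.81 in WT against -2.77 and -2.54 in Bach2KO, a difference of -1.82. Probe A_55_P2017972 read -1.87 and -2.00 in WT against -1.71 and -1.47 in Bach2KO, a difference of 0.34. Both probes are assigned to transcript NM_011404, and each stood in 1 spot per array whose error, as given in the deposited scanner files, was at most 10.3% of its signal. The first probe stood for the gene because its mean level over the 4 arrays was the higher, by -1.74 against -1.76. Where each probe binds in the transcript was not analysed here. The first probe was at least 2-fold lower in all pairs with spike-in scaling too (-2.54), where the other differed by -0.37.

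Chac1 and Sesn2 link the pathway to glutathione and to growth control. Chac1, a glutathione-degrading enzyme and a specific target of the Atf4 and Ddit3 branch, read -2.53 and -2.77 in WT against -0.60 and -0.36 in Bach2KO. The difference was 2.17 (4.49-fold), with array pairs from 1.93 to 2.41, the widest range among the 6 higher genes, and 1.45 with spike-in scaling. Sesn2, a leucine-binding inhibitor of mTORC1 that is induced by Atf4 and by p53, read 0.90 and 0.89 in WT against 0.71 and 0.89 in Bach2KO. The genotypes overlapped, and the difference was -0.09, or -0.81 with spike-in scaling.

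**Figure D2:**
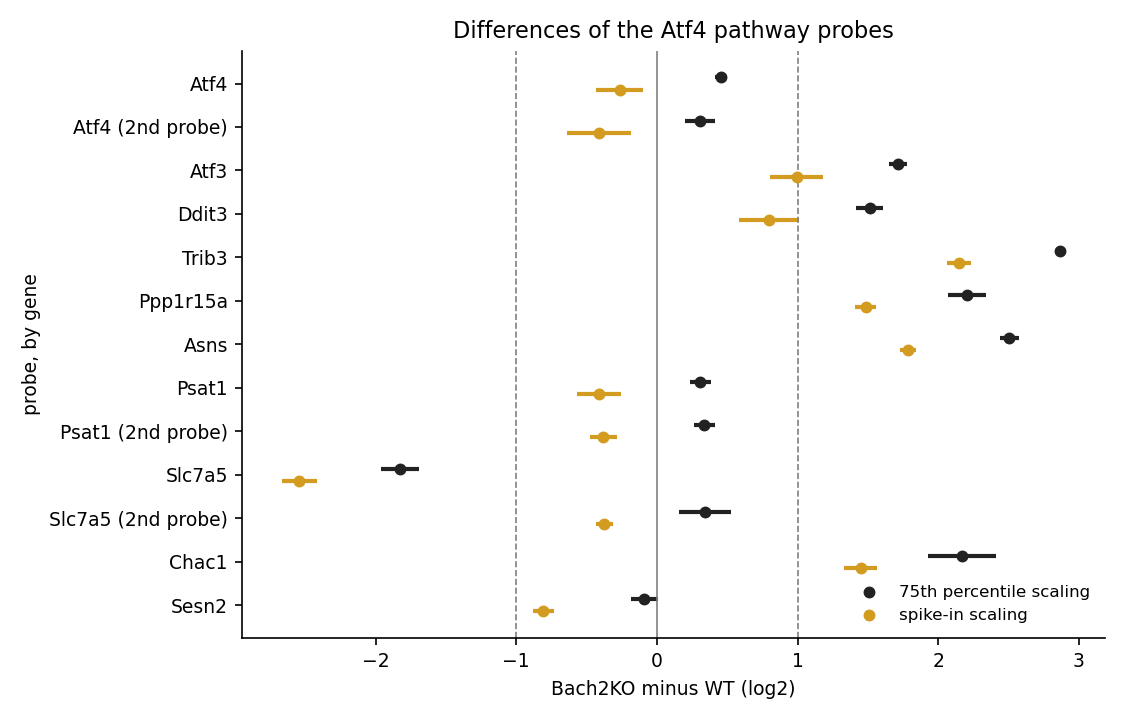
Difference between Bach2KO and WT (log2, horizontal axis) for each probe (vertical axis), with points for the difference of the means and bars for the range over the 4 array pairs, under both scalings. Dashed lines mark 2-fold; Trib3, Asns, Ppp1r15a and Chac1 lie beyond it under both scalings, and Atf3 (0.99) and Ddit3 (0.79) do not with spike-in scaling.

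**Figure D3:**
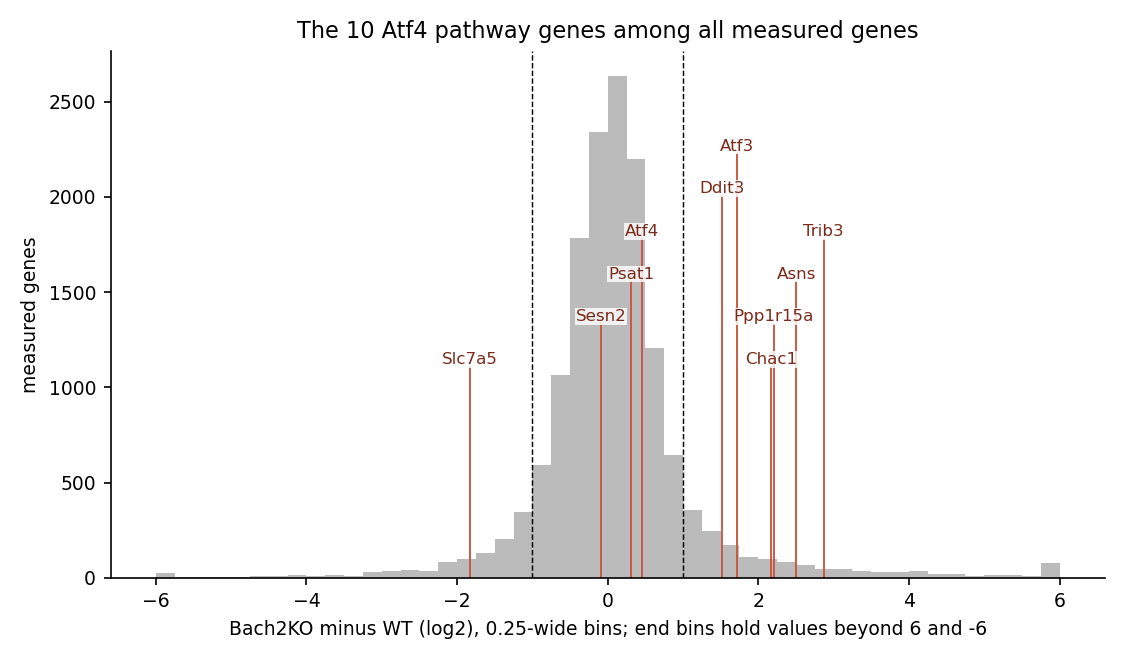
Number of measured genes (vertical axis) by difference between Bach2KO and WT (log2, horizontal axis), with a line at the value of each of the 10 genes, whose heights only separate the names. Dashed lines mark 2-fold, beyond which 6 of the 10 genes lie on the right and Slc7a5, by its brighter probe, on the left.

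Few genes upstream of Atf4 were called. Of 20 genes for eIF2 kinases, eIF2 and its exchange factor and phosphatases, 1 was higher and none lower, a share below the 8.37% of all genes, and the median was 0.00. The kinases differed by 0.07 (Eif2ak4, which encodes the amino acid sensor GCN2), 0.14 (Eif2ak3, the endoplasmic reticulum sensor PERK), -0.22 (Eif2ak2, the double-stranded RNA sensor PKR) and -0.07 (Eif2ak1, the heme-regulated kinase). The gene that was higher was Impact, whose product competes with GCN2 for its activator Gcn1, with means of 1.34 ± 0.02 in WT and 2.52 ± 0.01 in Bach2KO, a difference of 1.18 that was 0.46 with spike-in scaling. Ppp1r15b, the constitutive counterpart of Ppp1r15a, differed by -0.35. With spike-in scaling none of the 20 genes was called, beside 4.15% higher and 21.0% lower of all measured genes, and the median was -0.72. These are messenger levels, and the phosphorylation of eIF2 was not measured.

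Factors that pair with Atf4 or share its type of domain went both ways. Of 16 measured, 3 were higher and 1 lower, beside 8.37% and 5.90% of all measured genes, with a median of -0.23. Scaled to the spike-ins, 1 was higher (Atf5) and 6 were lower, beside 4.15% and 21.0% of all measured genes, with a median of -0.94. Atf5, which like Atf4 is under translational control by eIF2, had levels of 3.20 ± 0.01 in WT and 5.31 ± 0.05 in Bach2KO, a difference of 2.11, and 1.39 with spike-in scaling. Jdp2 and Jun, which encode partners of Atf3, differed by 1.71 and 1.48, with neither called with spike-in scaling. Cebpd, a C/EBP factor gene induced in inflammation, was lower by -1.71. The C/EBP partners Cebpb and Cebpg and the oxidative stress factor Nfe2l2 differed by -0.14, -0.35 and -0.19.

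Amino acid enzymes showed a similar division to that between Asns and Psat1. Of 17 measured genes of amino acid synthesis and one-carbon metabolism 3 were higher and 1 was lower, with a median of 0.11. Over all measured genes 8.37% were higher and 5.90% lower. Got1, the cytosolic aspartate aminotransferase, was 4.63-fold higher (1.01 ± 0.10 in WT, 3.22 ± 0.01 in Bach2KO), and the branched-chain aminotransferase gene Bcat2 and the mitochondrial folate enzyme gene Mthfd2 differed by 1.26 and 1.13. Phgdh, which catalyses the first step of serine synthesis ahead of Psat1, was lower by -1.06 on both of its probes, and Psph, the enzyme after Psat1, differed by 0.04. With spike-in scaling Got1 was the only one of the list called higher and 3 were lower, beside 4.15% and 21.0% of all measured genes.

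Amino acid transporters included the largest differences of the related enzyme and transporter lists. Of 18 measured 3 were higher and 1 lower, beside 8.37% and 5.90% of all measured genes, and the median was 0.43. Slc7a11, the light chain of the cystine importer, had levels of -2.41 ± 0.07 in WT and 0.43 ± 0.09 in Bach2KO, a 7.21-fold higher signal. The glycine transporter gene Slc6a9 was 5.32-fold higher, with a second probe at 2.91, and Slc43a3, whose product carries purine bases, was 3.42-fold higher, whereas the neutral amino acid transporter gene Slc43a2 was lower by -1.37. Slc3a2, the heavy chain that both Slc7a5 and Slc7a11 need, differed by 0.82, below 2-fold. Slc7a11 and Slc6a9 were called with spike-in scaling too (2.13 and 1.69), and Slc43a3 was not (1.06 on the means).

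The aminoacyl-tRNA synthetases, several of which are targets of Atf4 in other cells, were not among the genes called with the 75th percentile. None of the 23 cytosolic synthetase genes and cofactors met the rule in either direction, beside 8.37% higher and 5.90% lower of all measured genes. With spike-in scaling none was higher and 2 were lower, Dars (-1.30) and Gars (-1.07), beside 4.15% and 21.0% of all measured genes. With the 75th percentile the differences of the 23 genes ran from -0.58 to 0.82 with a median of -0.09. The glycyl and tryptophanyl enzyme genes Gars and Wars, the brightest of the list, differed by -0.36 and 0.62.

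The calls among other genes reported as targets of Atf4 or Ddit3 depended on the scaling. Of 24 measured 6 were higher and none lower, beside 8.37% and 5.90% of all measured genes, with a median of 0.51. With spike-in scaling 1 (Gdf15) was higher and 2 were lower, beside 4.15% and 21.0% of all measured genes, with a median of -0.21. Gdf15, a stress cytokine that lowers appetite, had levels of 2.32 ± 0.05 in WT and 4.49 ± 0.02 in Bach2KO, a 4.50-fold higher signal, or 1.45 on the log2 scale with spike-in scaling. The carbonic anhydrase gene Car6 was well above background on 1 of the 2 WT arrays, with levels of -1.92 and -6.41 there and of -0.58 and -0.68 in Bach2KO, so the size of its difference (3.53) rests on a WT array that did not measure it. Jdp2, given above, was among the 6. Gabarapl1, an autophagy gene of the Atg8 family, differed by 1.32, and 0.60 with spike-in scaling.

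In the other arms of the unfolded protein response, run by Xbp1 and Atf6, 4 of 19 measured genes were higher and none was lower. Over all measured genes these shares were 8.37% and 5.90%. The other 15 met neither condition, and the median was 0.70. The higher genes were the chaperone gene Hspa5 (1.26), Creld2 (1.18), Sdf2l1 (1.10) and Manf (1.07), all less than 2.5-fold. None of them was called with spike-in scaling, where the median of the list was -0.02. Xbp1 itself differed by -0.49, and was called lower with spike-in scaling (-1.21). The largest of the 19 differences, 1.26, lay below those of the 6 members called higher. Atf4, Psat1, Sesn2 and both probes of Slc7a5 lay below the median of the 19.

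**Figure D4:**
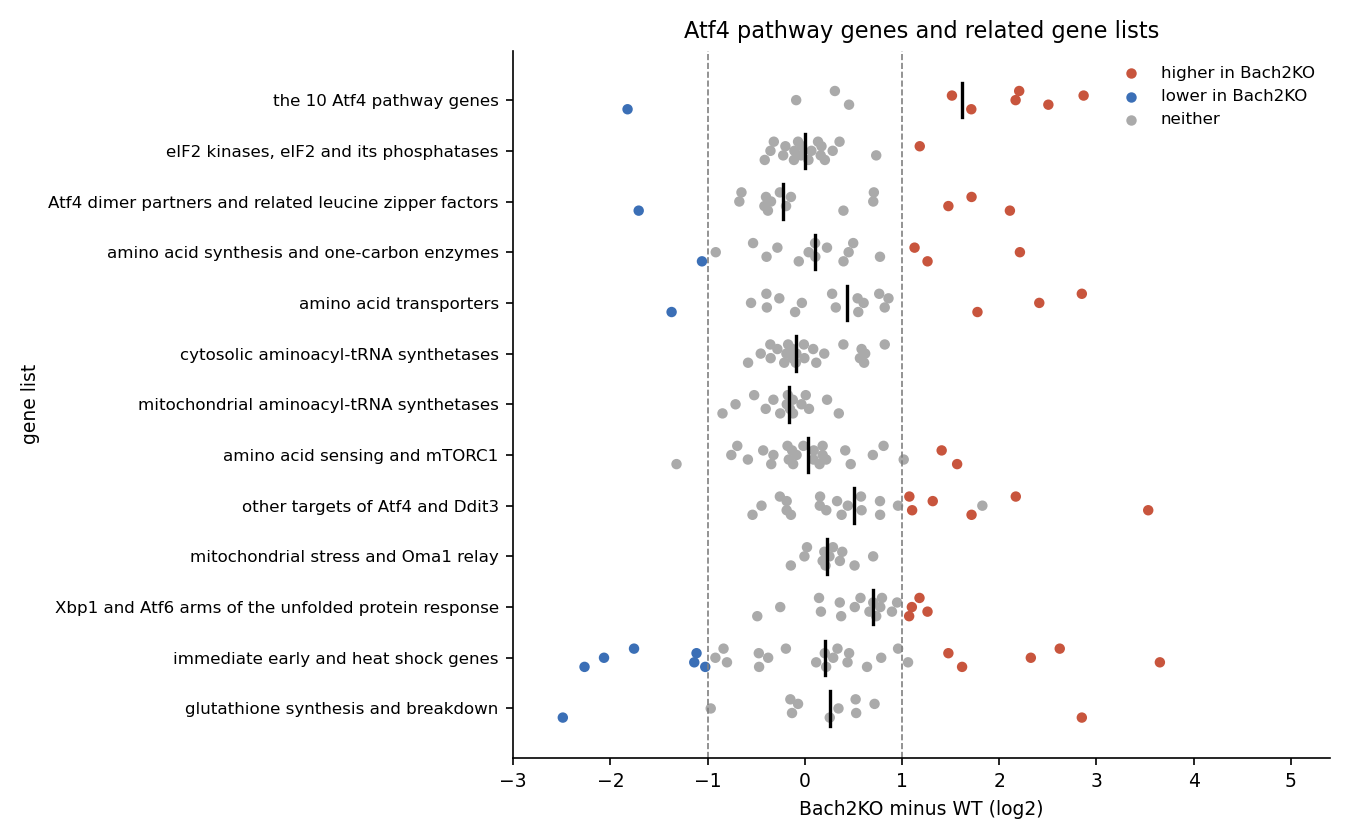
Difference between Bach2KO and WT (log2, horizontal axis) for each measured gene of the 10 Atf4 pathway genes and of 12 related lists (vertical axis), with the median as a bar and colour for the call. Dashed lines mark 2-fold; the medians are 1.61 for the 10 genes and between -0.23 and 0.70 for the other lists.

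Atf3, Ppp1r15a and Ddit3 respond to handling of cells as well, so genes that report such handling are given beside them. Of 29 measured immediate early and heat shock genes 5 were higher and 6 lower, with a median of 0.21. Over all measured genes 8.37% were higher and 5.90% lower. With spike-in scaling 3 were higher and 12 lower, beside 4.15% and 21.0% of all measured genes, with a median of -0.51. The largest differences were those of the early response gene Ier3 (3.65), the cytokine signalling inhibitor gene Socs3 (2.62), the phosphatase gene Dusp2 (2.32) and the growth-arrest gene Btg2 (-2.27). Fos differed by -1.02, whereas Jun, given above as a partner of Atf3, differed by 1.48. Whether handling had a part in the levels of Atf3, Ppp1r15a or Ddit3 was not tested.

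Some markers of other cells differed between the same RNA samples, in which 8.37% of all measured genes were higher and 5.90% lower. Of 18 measured monocyte and interstitial macrophage markers 8 were higher and 2 lower, and their summed level was 118 and 120 in WT against 184 and 189 in Bach2KO, with Maf, Folr2 and Lyve1 not well above background in WT. Among 10 neutrophil markers 3 were higher and 1 lower (summed level 44.5 and 45.8 in WT, 55.7 and 56.0 in Bach2KO, S100a9 and Retnlg not above background in WT). Among 11 T cell markers 5 were higher (6.95 and 7.76 against 9.44 and 9.54), with Cd3d, Cd3g and Bcl11b not above background in WT. Among 9 markers of B and plasma cells 2 were higher and 1 lower (60.2 and 64.6 against 43.8 and 44.3, Cd79b and Sdc1 not above background in WT), among 11 epithelial markers 3 were higher and 1 lower (4.33 and 4.46 against 7.15 and 7.20, Sftpb not above background in WT and Epcam not in Bach2KO), among 5 endothelial markers 2 were higher (14.2 and 15.1 against 29.6 and 29.8), and none of 5 eosinophil and mast cell markers was called (0.09 and 0.16 against 0.11 and 0.22, Prg2 not above background in WT). With spike-in scaling the counts of higher and lower markers were 7 and 3 for monocytes and interstitial macrophages, 3 and 1 for neutrophils, 1 and 0 for T cells, 1 and 2 for B and plasma cells, 1 and 1 for epithelium, 1 and 0 for endothelium, and 0 and 0 for eosinophils and mast cells. Over all measured genes 4.15% were higher and 21.0% lower with that scaling. A marker not above background in 1 genotype entered only through the other, so the filter fixed its direction and its call is no support. The part of the cell types named above in the levels of the 10 genes was not tested. In RNA from a pool a change in the share of cells and a change of RNA per cell cannot be told apart.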

How the data were processed

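RNA of 2 WT and 2 Bach2KO arrays was measured by 1-colour hybridisation. The deposited scanner files give linear spot intensity, background-subtracted and detrended within the array with Feature Extraction, version 10.7.3.1 per the file headers (9.1 per the submitters' processing notes). The deposited value table holds log2 values, which equal the log2 processed signal of each array minus a constant 0.09 to 0.13 below its log2 75th percentile (column medians -3.58, -3.67, -3.53 and -3.45, genes not centred, brighter probes higher).

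Control and outlier spots were left out, spots of a probe were averaged as log2, and the 75th percentile of the array was subtracted. A probe was kept where both arrays of at least 1 genotype had it well above background, and the probe with the highest mean stood for its gene. Of 39429 probes 26055 had 1 symbol, 0 several and 13374 none, through unversioned accessions in a RefSeq table of assembly GRCm38.p6. The design uses mm9, so genes are given no coordinates and only the RefSeq windows carry them. A gene not well above background on either array of a genotype also needed a 2-fold bound against the lowest signal above background.

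The members, lists and tests were chosen with earlier results of these data known. Named genes were all members, up to 4 called genes of each list by size or, with none called, its brightest 2. Other genes named for their roles, such as the eIF2 kinases, Slc3a2, Cebpb, Cebpg, Nfe2l2, Psph, Ppp1r15b, Xbp1 and Fos, were added after their values were seen. The rule of size was tested on simulated data. Alternatives covered scaling, normexp background correction (limma 3.58.1 in R 4.3.3, offset 50, on median spot signals), the value table, dim and outlier filters, probe choice, thresholds, pairing and leaving out each array. Python 3.11.15 with pandas 2.3.3 was used. A single gene of the marker lists is not reported here and enters no count of them.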

Additional observations from a re-analysis of the deposited data

How the results depend on the processing

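Trib3, Asns, Ppp1r15a and Chac1 were called higher under all 19 alternatives tried. These genes had 1 probe each, above background on all 4 arrays. Only the other scalings, normexp correction, the value table and the 3-fold threshold could therefore have ended their calls. The other alternatives kept their values, loosened the rule or used only part of the array pairs that had already passed. Atf4, Psat1 and Sesn2 were never called, although Atf4 and Psat1 turned negative with spike-in scaling. Atf3 lost its call with spike-in scaling (0.99), and Ddit3 with spike-in scaling (0.79) and a 3-fold threshold. The median difference of the members was 1.51 with median centring, 1.52 with normexp correction and 0.89 with spike-in scaling, and ranged from 1.55 to 1.68 without 1 of the arrays. The count of members called higher was 6 without any 1 of the arrays, and it could not have fallen. The 6 have 1 probe each, and the array pairs left had all passed already. The lower call of Slc7a5 ended wherever its other probe stood for the gene or was averaged in: 0 members were lower with quantile normalization (0.33 for Slc7a5), with the dimmest probe (0.34, chosen after seeing the data) and with the mean of the probes (-0.74). Without 1 of the arrays 0 to 1 members were lower and Slc7a5 ran from -1.94 to 0.41, with 0.41 without WT replicate 1 and 0.28 without WT replicate 2, where the other probe was the brighter. Probe A_55_P1973941 alone was negative under all 6 scalings and sources of values (-1.37 to -2.54). Over all measured genes, 627 were higher and 3175 lower with spike-in scaling, against 1266 and 892 in the main analysis, 2237 and 1933 at 1.5-fold, and 695 and 410 at 3-fold. Without 1 of the arrays these counts ran from 1328 to 1490 higher and from 968 to 1035 lower. With the replicate number as a block (same-numbered array pairs only) 6 members were higher and 1 lower, of 1301 and 916 genes. The numbers mark parts of 1 RNA sample, the deviations of same-numbered arrays correlated at -0.14 over genes, and crossed pairs, chosen after seeing the data, gave 6 and 1 members as well, of 1340 and 944 genes. Same-numbered and crossed pairs are both parts of the pairs that had already passed, so neither could end a member's call. The number of arrays and the single RNA sample per genotype limit the precision of each value.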

Other observations

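Glutathione metabolism, to which Chac1 belongs as a degrading enzyme, had 1 higher and 1 lower gene among 11 others measured, near the shares over all measured genes (8.37% higher and 5.90% lower), with a median of 0.26. With spike-in scaling 1 was higher and 2 were lower, beside 4.15% and 21.0% of all measured genes. The cystine importer gene Slc7a11 was the higher one. Oplah, which returns the 5-oxoproline left by glutathione breakdown to glutamate, read 0.49 ± 0.03 in WT against -2.00 ± 0.06 in Bach2KO, a difference of -2.49 that was -3.21 with spike-in scaling. Chac2, the constitutive relative of Chac1, differed by 0.72.

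In the amino acid sensing and mTORC1 list 2 of 26 measured genes were higher and none lower, with a median of 0.04. Over all measured genes 8.37% were higher and 5.90% lower. With spike-in scaling none of the list was higher and 4 were lower (Rragb, Deptor, Mios and Eif4ebp1), beside 4.15% and 21.0% of all measured genes. Sesn1, a relative of Sesn2 that is induced by p53, differed by 1.41 (-1.03 ± 0.01 in WT and 0.38 ± 0.00 in Bach2KO), and Rragd, a GTPase that recruits mTORC1 to lysosomes, by 1.57. Neither was called with spike-in scaling (0.69 and 0.85). None of 16 mitochondrial aminoacyl-tRNA synthetase genes was called (median -0.16, with 2 lower with spike-in scaling, Pars2 and Vars2), with Tars2 at -0.25 and Fars2 at -0.12, and none of 12 genes of mitochondrial stress and the Oma1 relay to eIF2 was (median 0.23), with Ubl5 at 0.36 and the chaperonin gene Hspe1 at 0.70.

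Over measured genes with a RefSeq window, the composite element TGATGNAA was present for 44 of 968 genes called higher (4.55%), 26 of 717 called lower (3.63%) and 328 of 10423 called neither (3.15%). These shares are given as a description.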
